A study of Homo sapiens with 6 samples.

Results

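The genes described here are 10 transcripts that rise under low oxygen and lie outside glycolysis: ANGPTL4, NDRG1, BNIP3, BNIP3L, ANKRD37, CA9, VEGFA, ADM, EGLN3 and PDK1. They were taken by name, with all of their probe sets that name 1 gene in the platform's annotation. Of the 10 genes, 9 had such a probe set, 19 probe sets in all out of 54675 on the array, and CA9, a carbonic anhydrase at the cell surface, was not analysed here. All 9 genes entered the tests, which covered 14428 genes, and 18 of the 19 probe sets lay above the level of 2.64 (log2) under which values were treated as close to background. The exception was the second EGLN3 probe set, which lay below that level on all 6 arrays.

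When oxygen is scarce, hypoxia-inducible factors (HIF) escape the prolyl hydroxylases that mark them for destruction, enter the nucleus and bind short DNA elements at their target genes. The prolyl hydroxylases need oxygen, iron and 2-oxoglutarate, and TET enzymes such as TET2 belong to the same class of 2-oxoglutarate-dependent dioxygenases. The target genes hold pyruvate back from the citric acid cycle, remove mitochondria, recruit vessels and regulate acidity. Melanoma cells can express many of them in ordinary air.

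The cells were A2058, an established human melanoma line, in 3 forms: TET2WT, which overexpresses the wild-type construct, TET2M, which overexpresses a construct that another label field calls Mut, and Mock. Each was grown for 7 days in DMEM with high glucose (4.5 g/L) or normal glucose (1 g/L), with 1 Affymetrix array for each of the 6 combinations. The labels do not say which promoter drives the constructs, what was changed in TET2M or whether a line is 1 clone, and they name no difference in oxygen. Values are the log2 probe set values that the authors deposited, differences are on that log2 scale, and ± is limma's standard error. A gene passed when limma's p was under 0.05 after Benjamini-Hochberg adjustment over the 14428 genes.

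No combination was measured more than once, so the p-values rest on how a difference varied over the 3 lines or the 2 concentrations and may measure technical spread. Precision is limited by there being 6 arrays. In simulated data 0% of 1.5-fold changes were recovered in every comparison, so a gene that did not pass may still differ. The median of the arrays lay between 2.96 and 3.03, and their sorted values differed by at most 0.12, so the authors had brought them to nearly the same distribution. TET2 itself read 9.54 and 9.68 in TET2WT, 7.57 and 7.37 in TET2M, and 3.81 and 4.13 in Mock. In such pairs the high-glucose array comes before the normal-glucose one. A second TET2 probe set gave the same order, at 6.64 and 6.87 in TET2WT, 4.57 and 3.89 in TET2M, and 2.10 and 2.64 in Mock. Its remaining probe set did not separate the lines, at 5.30 and 5.15 in TET2WT, 5.41 and 5.31 in TET2M, and 5.23 and 5.22 in Mock. Of the 11 measured melanocyte and melanoma markers, 7 lay above the low-value level, among them SOX10, MITF and S100B, whereas MLANA, TYR, TYRP1 and GPM6B did not. Their summed linear level was 1235 and 1434 in TET2WT, 1302 and 1441 in TET2M, and 1294 and 1367 in Mock, so the lines overlapped. Of the markers of other cell types, 6 of 8 keratinocyte and epithelial, 5 of 8 fibroblast, 4 of 6 endothelial and 3 of 5 blood genes measured had means above the low-value level, whereas CDH1, EPCAM, COL1A2, COL3A1, FAP, CDH5, ERG, PTPRC and CD14 did not. Some of these means barely cleared it, as for CD3E (2.65, with 5 arrays below it), KRT1 (2.735), PDGFRA (2.77) and TEK (2.92). Others lay well above it, as for KRT10 (9.335) and KRT14 (5.635).

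Several markers differed between TET2WT and Mock alongside the genes described next. Among the 7 tested melanocyte and melanoma markers, the lineage factor MITF fell by 0.60 and the proteoglycan gene CSPG4 fell by 0.77, while the vesicle transport gene RAB27A rose by 0.55 (adjusted p = 0.0433, 0.0422 and 0.0366, limma). The keratin gene KRT14, the 1 of 6 tested keratinocyte and epithelial markers that passed, read 4.55 and 3.89 in TET2WT, 6.22 and 5.91 in TET2M, and 6.86 and 6.38 in Mock. It differed between TET2WT and Mock by -2.40 ± 0.11 (adjusted p = 4.4e-04, limma). LUM, the 1 of 5 tested fibroblast markers that passed, read 3.74 and 3.11 in TET2WT, 5.12 and 4.38 in TET2M, and 4.63 and 4.34 in Mock, with a difference from Mock of -1.06 ± 0.13 (adjusted p = 0.0137, limma). Of the tested undifferentiated melanoma, endothelial and blood markers 0 passed. The summed level of the keratinocyte and epithelial markers was 724.9 and 729.4 in TET2WT, 761.3 and 697.6 in TET2M, and 820.3 and 783.3 in Mock. KRT10, at 9.35 and 9.39 in TET2WT, 9.32 and 9.23 in TET2M, and 9.36 and 9.36 in Mock, made up most of it. The summed level of the fibroblast markers was 86.35 and 72.52 in TET2WT, 101.6 and 87.95 in TET2M, and 87.31 and 86.79 in Mock. CSPG4, KRT14 and LUM were lower in TET2WT than in TET2M as well, and 0 markers passed between TET2M and Mock or for glucose. The part of these markers in the results was not tested.

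The comparison of TET2WT with Mock, as the mean over both glucose concentrations, asked whether these genes differ between those lines. Construct and line go together here, so the construct and any other difference between the lines cannot be told apart. How separately made lines of the same construct vary is not measured by the p-values. ANGPTL4, NDRG1, BNIP3L, ANKRD37 and ADM rose in TET2WT, by between 0.62 (ADM) and 1.55 (ANGPTL4). Thus 5 of the 9 genes passed as higher and 0 as lower, against 2.01% of all genes tested that passed as higher. The median difference of the 9 genes was 0.62, against -0.010 for all genes. BNIP3, PDK1, VEGFA and EGLN3 had positive differences that did not pass. In whole-culture RNA, more cells of a type and more RNA per cell cannot be told apart.

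ANGPTL4 encodes a secreted inhibitor of lipoprotein lipase. It read 6.68 and 6.90 in TET2WT at high and normal glucose, 5.95 and 5.58 in TET2M, and 5.46 and 5.02 in Mock. Both TET2WT arrays lay above all 4 others, and both TET2M arrays lay above both Mock arrays. The difference of TET2WT from Mock was 1.55 ± 0.17, or 2.93-fold (adjusted p = 0.0102, limma), the largest of the 9 genes. The second ANGPTL4 probe set read 5.34 and 5.32 in TET2WT, 4.27 and 3.93 in TET2M, and 4.21 and 4.06 in Mock. It gave the same separation of TET2WT but had the TET2M and Mock arrays overlapping.

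NDRG1, a cytoplasmic protein named for its control by N-myc and used as a marker of hypoxia, read 8.07 and 8.44 in TET2WT, 7.46 and 7.67 in TET2M, and 7.13 and 7.27 in Mock. None of the 3 lines overlapped. Its difference of TET2WT from Mock was 1.06 ± 0.098 (adjusted p = 0.00591, limma). ANGPTL4 and NDRG1 were the 2 of the 9 genes that were at least 1.5-fold higher in TET2WT than in Mock at both concentrations, a size that 1.35% of all genes reached.

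BNIP3 and BNIP3L encode related receptors of the outer mitochondrial membrane that hand mitochondria to autophagy. BNIP3L read 8.41 and 8.69 in TET2WT, 8.10 and 8.27 in TET2M, and 7.88 and 7.80 in Mock, with no overlap between the lines. TET2WT exceeded Mock by 0.71 ± 0.11 (adjusted p = 0.0302, limma). BNIP3 read 10.26 and 10.36 in TET2WT, 9.98 and 9.83 in TET2M, and 9.85 and 9.70 in Mock. Its TET2WT arrays also lay above the other 4, but its difference of 0.54 ± 0.10 missed the threshold narrowly (adjusted p = 0.0501, limma). The second probe sets of both genes had the same direction, with differences of TET2WT from Mock of 0.54 for BNIP3 and 0.47 for BNIP3L. With the mean of its 2 probe sets, BNIP3L had a difference of 0.587 and did not pass.

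ANKRD37, an ankyrin repeat protein gene known as a HIF target, read 6.93 and 6.97 in TET2WT, 6.67 and 6.40 in TET2M, and 6.45 and 6.06 in Mock. Both TET2WT arrays lay above the other 4, while TET2M and Mock overlapped. Its difference of TET2WT from Mock was 0.70 ± 0.12 (adjusted p = 0.0416, limma). The other ANKRD37 probe set lay near background, at 2.81 at most, with no such separation, and with the mean of both the difference was 0.31 and did not pass. ADM, which encodes the vasodilator peptide adrenomedullin, read 7.98 and 7.73 in TET2WT, 7.47 and 7.33 in TET2M, and 7.30 and 7.18 in Mock. For ADM the 3 lines did not overlap, and TET2WT exceeded Mock by 0.62 ± 0.090 (adjusted p = 0.0225, limma).

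PDK1 encodes pyruvate dehydrogenase kinase 1, which switches off the entry of pyruvate into the citric acid cycle. It read 7.09 and 7.39 in TET2WT, 6.74 and 6.57 in TET2M, and 6.91 and 6.60 in Mock, with a difference of TET2WT from Mock of 0.49 ± 0.16 that did not pass (adjusted p = 0.163, limma). Its TET2WT arrays stood above the others on this probe set, but not on the other 2 PDK1 probe sets, where Mock or TET2M arrays reached into their range. VEGFA, the main growth factor for blood vessels, read 8.21 and 8.04 in TET2WT, 8.18 and 7.74 in TET2M, and 8.19 and 7.69 in Mock, so the lines overlapped. EGLN3, one of the prolyl hydroxylases and itself a HIF target, read 3.43 and 3.20 in TET2WT, 3.13 and 3.15 in TET2M, and 3.12 and 3.17 in Mock. Its TET2WT arrays were the highest by a small margin. TET2WT differed from Mock by 0.19 ± 0.11 for VEGFA (adjusted p = 0.419, limma) and by 0.17 ± 0.11 for EGLN3 (adjusted p = 0.435, limma). By the probe set with the highest mean, 8 of the 9 genes had both TET2WT arrays above both Mock arrays, all but VEGFA. The same held for 19.7% of all genes tested.

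**Figure D1:**
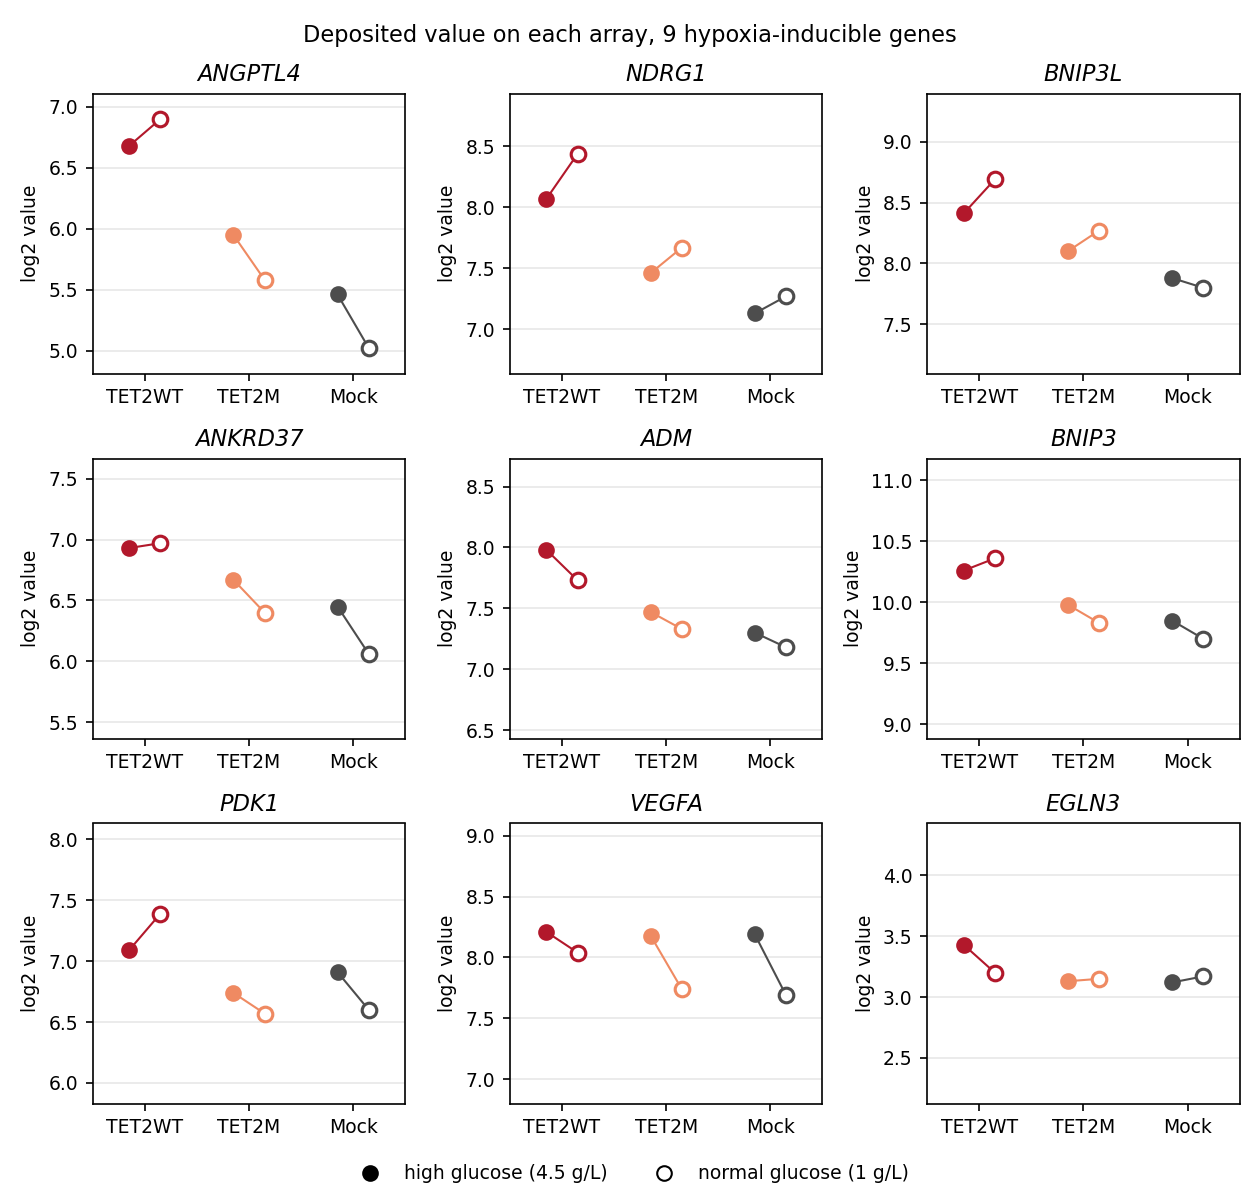
Deposited log2 value of each gene's probe set with the highest mean, 1 panel per gene and 1 point per array, with high glucose filled and normal glucose open, and the lines TET2WT, TET2M and Mock from left to right. Every panel spans the same number of log2 units, and in all panels but VEGFA both TET2WT points lie above both Mock points.

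The calls depended on all 6 arrays. With any of the arrays left out, which leaves 1 residual degree of freedom in place of 2, 0 of the 9 genes passed between TET2WT and Mock, and between 0 and 16 of all genes did. The differences stayed positive in each of these fits for all 9 genes, at 1.238 to 1.863 for ANGPTL4 and 0.958 to 1.152 for NDRG1. Leaving out a TET2M array cannot alter the difference between TET2WT and Mock, so those fits say nothing about its stability. When the moderated variance followed intensity, 7 genes passed, PDK1 and BNIP3 being added, while 4.55% of all genes then passed as higher. Without the glucose term 3 genes passed, ANGPTL4, NDRG1 and BNIP3L. The 3′ minus 5′ difference of the ACTB control probe sets, which grows as RNA is degraded, was 2.06 and 1.90 in TET2WT, 1.93 and 1.65 in TET2M, and 2.02 and 1.94 in Mock.

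Promoters of 4 of the genes with positive differences between TET2WT and Mock are shown, BNIP3 among them although it did not pass. They were picked because the core of the HIF element can be read in them, so a match in these promoters is not a result. Each is the 250 bases before the start of the gene in RefSeq, on the gene's strand, 5′ to 3′, from the build GRCh38.p14. Capitals mark every match to the 5-letter motifs ACGTG and GCGTG or to CACGT and CACGC, the same motifs on the other strand, and overlapping matches are joined. The stretches are chr19:8363905-8364154 (plus strand) for ANGPTL4, chr10:131981924-131982173 (minus strand) for BNIP3, chr4:185396591-185396840 (plus strand) for ANKRD37 and chr11:10304823-10305072 (plus strand) for ADM.
ANGPTL4: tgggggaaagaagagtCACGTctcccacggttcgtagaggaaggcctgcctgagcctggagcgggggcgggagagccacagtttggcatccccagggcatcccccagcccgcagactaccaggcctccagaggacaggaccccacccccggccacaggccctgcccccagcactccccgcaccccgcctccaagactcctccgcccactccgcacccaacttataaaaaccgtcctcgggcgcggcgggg
BNIP3: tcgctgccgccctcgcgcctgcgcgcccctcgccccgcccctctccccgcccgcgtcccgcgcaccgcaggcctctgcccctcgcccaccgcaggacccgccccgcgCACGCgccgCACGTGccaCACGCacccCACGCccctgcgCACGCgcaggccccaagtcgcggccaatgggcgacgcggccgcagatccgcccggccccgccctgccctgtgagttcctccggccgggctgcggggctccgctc
ANKRD37: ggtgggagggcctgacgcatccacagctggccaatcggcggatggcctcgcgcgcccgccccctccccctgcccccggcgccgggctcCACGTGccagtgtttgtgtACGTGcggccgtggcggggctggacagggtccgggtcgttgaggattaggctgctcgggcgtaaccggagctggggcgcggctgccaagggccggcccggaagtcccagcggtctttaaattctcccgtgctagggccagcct
ADM: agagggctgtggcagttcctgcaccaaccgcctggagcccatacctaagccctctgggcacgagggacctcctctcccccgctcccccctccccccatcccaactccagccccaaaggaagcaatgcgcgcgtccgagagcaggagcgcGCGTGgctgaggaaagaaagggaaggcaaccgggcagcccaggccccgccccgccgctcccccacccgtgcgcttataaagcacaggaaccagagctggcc

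BNIP3 held 5 such matches between 143 and 104 bases before its start, and in its CACGTG the 2 strands overlap. ANKRD37 held 2, at 162 and 143 bases before the start, ADM held 1 at 101 bases and ANGPTL4 held 1 at 234 bases. Of the 35116 RefSeq promoters of this length, 43.2% held at least 1 match, 16.2% at least 2 and 1.85% at least 4. These promoters are rich in G and C, at 81.6% for BNIP3, 71.6% for ANKRD37, 68.8% for ANGPTL4 and 68.0% for ADM. Among the 16148 promoters with at least 60% G and C, 59.4% held at least 1 match, 26.8% at least 2 and 3.59% at least 4. EGLN3 held 0 matches, and the 2 starts listed for PDK1 held 0 and 2. A match describes these letters alone, and binding was not measured. RefSeq promoters were matched for 7 of the 10 genes, and none is shown for NDRG1, BNIP3L and VEGFA.

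The comparison of TET2WT with TET2M set the 2 overexpressing lines against each other. TET2 itself was 2.14 higher in TET2WT than in TET2M (adjusted p = 0.00187, limma). The kind of construct and the level of TET2 therefore cannot be told apart here, nor can other differences between these lines. ANGPTL4 and NDRG1 rose, by 1.03 ± 0.17 (adjusted p = 0.0388, limma) and by 0.69 ± 0.098 (adjusted p = 0.0238, limma). These 2 of 9 stand against 1.86% of all genes that passed as higher in TET2WT. They were also the 2 genes at least 1.5-fold higher in TET2WT at both concentrations, against 1.40% of all genes. The other 7 genes had positive differences that did not pass, from 0.17 ± 0.11 for VEGFA to 0.59 ± 0.16 for PDK1, with ADM at 0.46 ± 0.090 nearest to the threshold (adjusted p = 0.0603, limma). On the probe sets with the highest mean, both TET2WT arrays lay above both TET2M arrays for 8 of the 9 genes, all but VEGFA. That was so for 21.2% of all genes. On the other probe sets of PDK1, BNIP3L and ANKRD37 the lines overlapped, while those of ANGPTL4, BNIP3 and EGLN3 separated them. The other PDK1 probe sets differed between TET2WT and TET2M by -0.085 and 0.245. When the moderated variance followed intensity, 7 of the 9 genes passed, all but VEGFA and EGLN3, while 4.80% of all genes then passed as higher. With any array left out 0 of the 9 did. NDRG1 also failed without the glucose term (adjusted p = 0.0843, limma).

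Between TET2M and Mock 0 of the 9 genes passed, while 0.097% of all genes did, 14 in number, and 3 of the 9 had an unadjusted p under 0.05, as did 1372 of all genes. ANGPTL4 had the largest difference, 0.53 ± 0.17 (adjusted p = 0.440, limma), followed by NDRG1 at 0.37 ± 0.098 and BNIP3L at 0.35 ± 0.11. No gene of the 9 was 1.5-fold apart in the same direction at both concentrations, a size that 0.513% of all genes reached. For ANGPTL4, NDRG1, BNIP3L and ADM both TET2M arrays lay above both Mock arrays, as they did for 12.8% of all genes. For these 4 genes the lines therefore ordered as TET2WT, TET2M, Mock, on the probe sets with the highest mean, with the step between TET2M and Mock not passing in any of them. The order was not seen on the second probe set of ANGPTL4, where TET2M differed from Mock by -0.035. On that of BNIP3L, TET2WT at 7.39 and 7.87 overlapped with TET2M at 7.51 and 7.19. PDK1 (-0.10 ± 0.16) and EGLN3 (-0.0050 ± 0.11) had negative differences, and VEGFA had one of 0.020 ± 0.11. TET2WT and TET2M were set against the same Mock arrays, so the differences of both from Mock are not independent. On its probe sets that separated the lines, TET2 was also ordered as TET2WT, TET2M, Mock. An order by construct, by TET2 level or by other differences between the lines cannot be told apart.

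**Figure D2:**
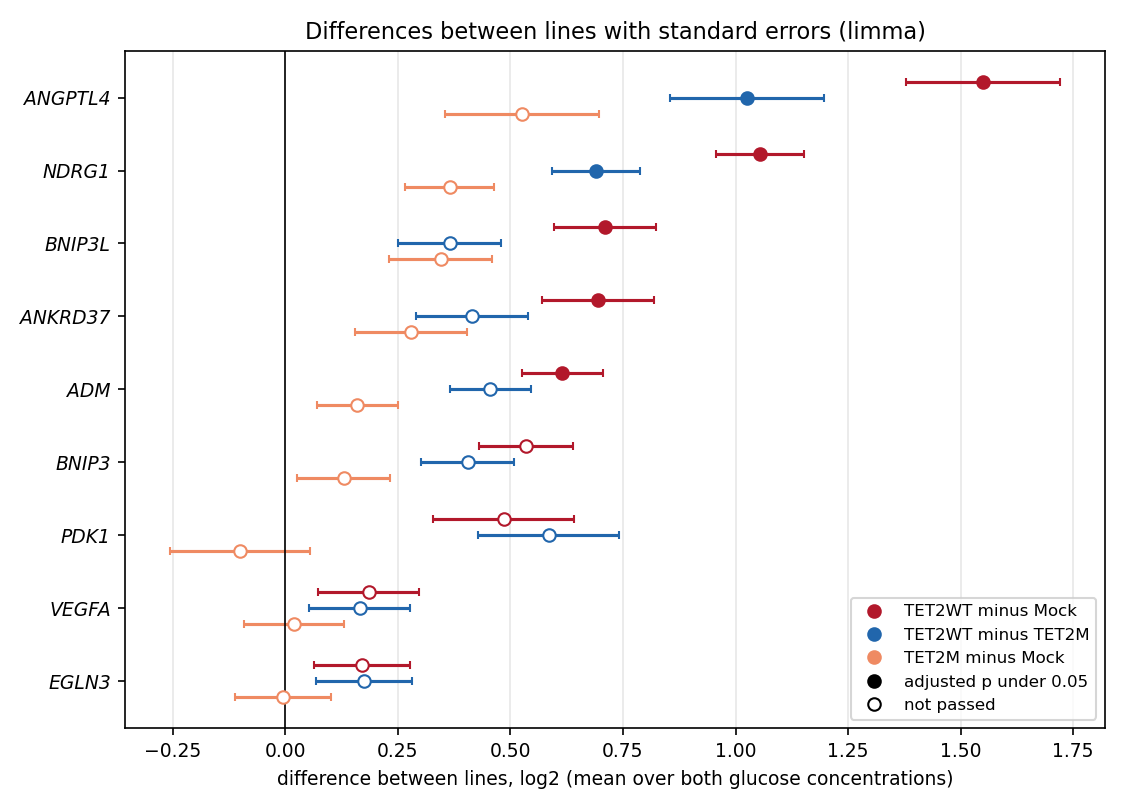
Difference between 2 lines for each gene on the log2 scale, as the mean over both glucose concentrations with limma's standard error as bars, for TET2WT minus Mock, TET2WT minus TET2M and TET2M minus Mock. Filled points passed at an adjusted p under 0.05, which 5, 2 and 0 genes did.

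High glucose was set against normal glucose across the lines to ask whether these genes follow the sugar supply. Of the 9 genes 0 passed, as did 0.00693% of all genes, 1 gene in number. VEGFA and NDRG1 had an unadjusted p under 0.05, as had 2218 of all genes. VEGFA had the largest difference, 0.37 ± 0.091 (adjusted p = 0.191, limma), and it was positive in 3 of 3 lines. Its 3 high-glucose arrays read 8.21, 8.18 and 8.19 and its 3 normal-glucose arrays 8.04, 7.74 and 7.69, in the order TET2WT, TET2M and Mock. They did not overlap, which was the case in the same direction for 6.04% of all genes and for none of the other 8.

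All 4 VEGFA probe sets were higher at high glucose in each of the 3 lines, with mean differences of 0.37, 0.49, 0.31 and 0.23. When the moderated variance followed intensity, VEGFA passed (adjusted p = 0.0147, limma), but 573 of all genes passed then, against 1 gene as reported. As higher, 315 of the 14428 genes tested passed, or 2.18%. NDRG1 went the other way in 3 of 3 lines, with a difference of -0.24 ± 0.080 (adjusted p = 0.262, limma). ADM was positive in 3 of 3 lines at 0.17 ± 0.073 (adjusted p = 0.341, limma). The remaining 6 genes had differences between -0.12 (BNIP3L) and 0.21 (ANKRD37) and changed sign between lines. None of the 9 reached 1.5-fold one way in each of the 3 lines, against 0.215% of all genes.

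Within the lines the direction was mixed, and each value rests on 2 arrays without a test. High glucose gave higher values for 3 of the 9 genes in TET2WT, 6 in TET2M and 7 in Mock. Over all genes the share was 49.4% in TET2WT, 44.3% in TET2M and 43.3% in Mock. ANGPTL4 differed by -0.22 in TET2WT, 0.37 in TET2M and 0.44 in Mock. PDK1 followed the same pattern at -0.30, 0.17 and 0.31, and so did ANKRD37 at -0.040, 0.27 and 0.39 and BNIP3 at -0.10, 0.15 and 0.15. EGLN3 had the opposite arrangement, 0.23 in TET2WT, -0.020 in TET2M and -0.050 in Mock.

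The glucose response of TET2WT was then set against the mean response of TET2M and Mock in 1 model. The difference of responses was negative for 7 of the 9 genes and positive for 2, while it was positive for 53.4% of all genes. It passed for 0 of the 9 and for 0% of all genes. For 2 of the 9 the unadjusted p was under 0.05, as it was for 1325 of all genes. The difference of responses was -0.63 ± 0.10 for ANGPTL4 and -0.54 ± 0.12 for PDK1 (adjusted p = 0.531 for both, limma). On the second ANGPTL4 probe set the glucose difference was 0.020 in TET2WT, 0.34 in TET2M and 0.15 in Mock, so the change of sign was not seen there. On all 3 PDK1 probe sets TET2WT had a negative glucose difference, between -0.46 and -0.30. The second BNIP3L probe set gave a glucose difference of -0.48 in TET2WT, 0.32 in TET2M and 0.35 in Mock. This model has 1 residual degree of freedom.

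**Figure D3:**
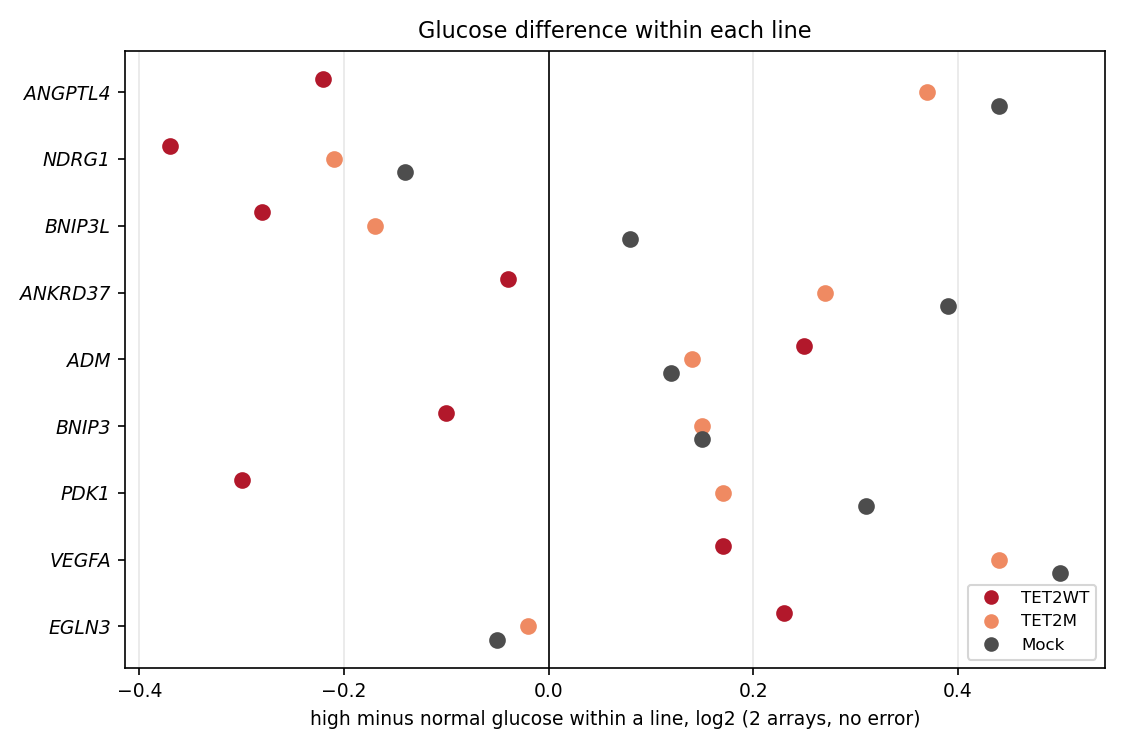
High minus normal glucose within each line for each gene on the log2 scale, 1 point per line from 2 arrays, without error. VEGFA and ADM lie to the right of 0 in all 3 lines and NDRG1 to the left, and ANGPTL4, ANKRD37, BNIP3 and PDK1 have TET2WT on the other side of 0 from both other lines.

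Other genes of the oxygen response were described from lists. Of 10 genes of the HIF and oxygen sensing machinery 0 passed in any of the 5 comparisons. Between TET2WT and Mock the largest differences among them were 0.54 ± 0.22 for CITED2, which competes with HIF for a coactivator, and 0.39 ± 0.089 for EGLN1, the main prolyl hydroxylase. HIF1A, chosen after its values were seen, read 11.19 and 11.05 in TET2WT, 10.99 and 10.84 in TET2M, and 10.86 and 10.70 in Mock. TET2M overlapped with Mock, and the TET2WT arrays lay above both. TET2WT exceeded Mock by 0.34 ± 0.085 without passing (adjusted p = 0.0969, limma). HIF protein is controlled mainly by its stability, which these arrays do not measure.

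A list of 40 further hypoxia-inducible genes outside glycolysis had 35 tested. Between TET2WT and Mock 7 of the 35 passed as higher and 0 as lower, with a median of 0.31, against -0.010 over all genes. Of all genes 2.01% passed as higher and 2.20% as lower in that comparison, and the counts of the lists below stand against these shares. Among them were SPAG4 (1.51 ± 0.21), the secreted glycoprotein STC1 (1.07 ± 0.15), TMEM45A (0.98 ± 0.17) and the nuclear receptor RORA. RORA read 3.81 and 4.43 in TET2WT, 2.66 and 2.55 in TET2M, and 2.38 and 2.35 in Mock, below the low-value level on both Mock arrays and 1 TET2M array. RORA entered the tests through TET2WT, so its call adds no support to the counts of this list. That call rests on a difference from Mock of 1.755 (adjusted p = 0.00912, limma). With Mock set at the low-value level TET2WT was at least 2.79-fold higher, a bound without a test. Between TET2WT and TET2M 6 of the list passed as higher and 0 as lower, against 1.86% and 1.43% of all genes, with the clock repressor BHLHE40 among them (1.00 ± 0.090), and 0 passed between TET2M and Mock.

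Among 20 genes of glycolysis and glucose transport that hypoxia induces, 19 were tested. The isozyme genes ALDOC (0.85 ± 0.11) and ENO2 (0.77 ± 0.11) passed as higher between TET2WT and Mock and 0 as lower, with a list median of 0.075. For glucose the medians of these lists were -0.12 for the further genes outside glycolysis and -0.10 for the glycolytic ones, with 0 passing, against -0.020 for all genes and 0.067 for the 9 genes. PFKFB4 (-0.46 ± 0.079), an enzyme that sets the level of a glycolytic activator, had the most negative glycolytic value for glucose, followed by its relative PFKFB3 and by ALDOC, both at -0.34. STC2 (0.72 ± 0.082) and the heme oxygenase gene HMOX1 (0.63 ± 0.076) had the largest values for glucose in the list outside glycolysis.

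Most tested partners of the 9 genes did not pass between TET2WT and Mock. LPL, the 1 of 7 tested relatives and partners of NDRG1 and ANGPTL4 that passed, is the lipoprotein lipase that ANGPTL4 inhibits. It read 5.50 and 5.16 in TET2WT, 6.42 and 6.31 in TET2M, and 5.98 and 5.92 in Mock. Both TET2WT arrays were the lowest and both TET2M arrays the highest. LPL fell in TET2WT, with a difference from Mock of -0.62 ± 0.10 (adjusted p = 0.0346, limma). The difference from TET2M was -1.04 ± 0.10 (adjusted p = 0.00822, limma). ANGPTL4 is also a target of the fatty acid receptors of the PPAR family, and of 8 PPAR targets tested, PDK4 (1.34 ± 0.22) and PLIN2 (0.54 ± 0.10) passed as higher in TET2WT than in Mock and 0 as lower. PDK4, a second pyruvate dehydrogenase kinase, read 5.46 and 6.21 in TET2WT, 4.73 and 4.71 in TET2M, and 4.59 and 4.41 in Mock. Both TET2WT arrays stood above the other 4. It was the 1 of 12 tested genes of the pyruvate dehydrogenase system that passed.

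Of 14 mitophagy and BCL2 family genes, 1 passed between TET2WT and Mock, the kinase gene PINK1 (0.48 ± 0.088, adjusted p = 0.0433, limma). Of the 8 tested VEGF ligands and receptors other than VEGFA, VEGFC (-1.11 ± 0.096, adjusted p = 0.00489) and the receptor gene FLT1 (-0.86 ± 0.10, adjusted p = 0.0137) were lower in TET2WT than in Mock in limma, and 0 were higher. RAMP1, which encodes an accessory protein of the receptor CALCRL, rose in TET2WT by 1.08 ± 0.12 over Mock (adjusted p = 0.00969, limma). It was the 1 of 4 tested genes of adrenomedullin receptors and relatives to pass, and CALCRL was not among those tested. RAMP3, another accessory protein gene of that list, differed by -0.0050 ± 0.10, with a mean of 2.83, near the low-value level. Which peptide such a receptor would bind was not measured. Of 5 tested genes of carbonic anhydrases and pH regulation, the bicarbonate cotransporter gene SLC4A7 passed as lower (-0.59 ± 0.091).

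Stress programmes that can also raise VEGFA and ADM gave other counts. Of the 16 ATF4 targets tested, 16 were higher at high glucose, against 43.8% of all genes, with a median of 0.55 and 0 passing. In TET2WT 3 of the 16 were higher than in Mock, against 47.3% of all genes, with a median of -0.16 and 0 passing. Of 12 AP-1 and immediate early genes, 2 were higher at high glucose, against the same 43.8% of all genes, with a median of -0.27. SPRY2, 1 of the 12, passed as lower in TET2WT than in Mock (-0.75 ± 0.092). Their part in the values of VEGFA and ADM was not tested.

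**Figure D4:**
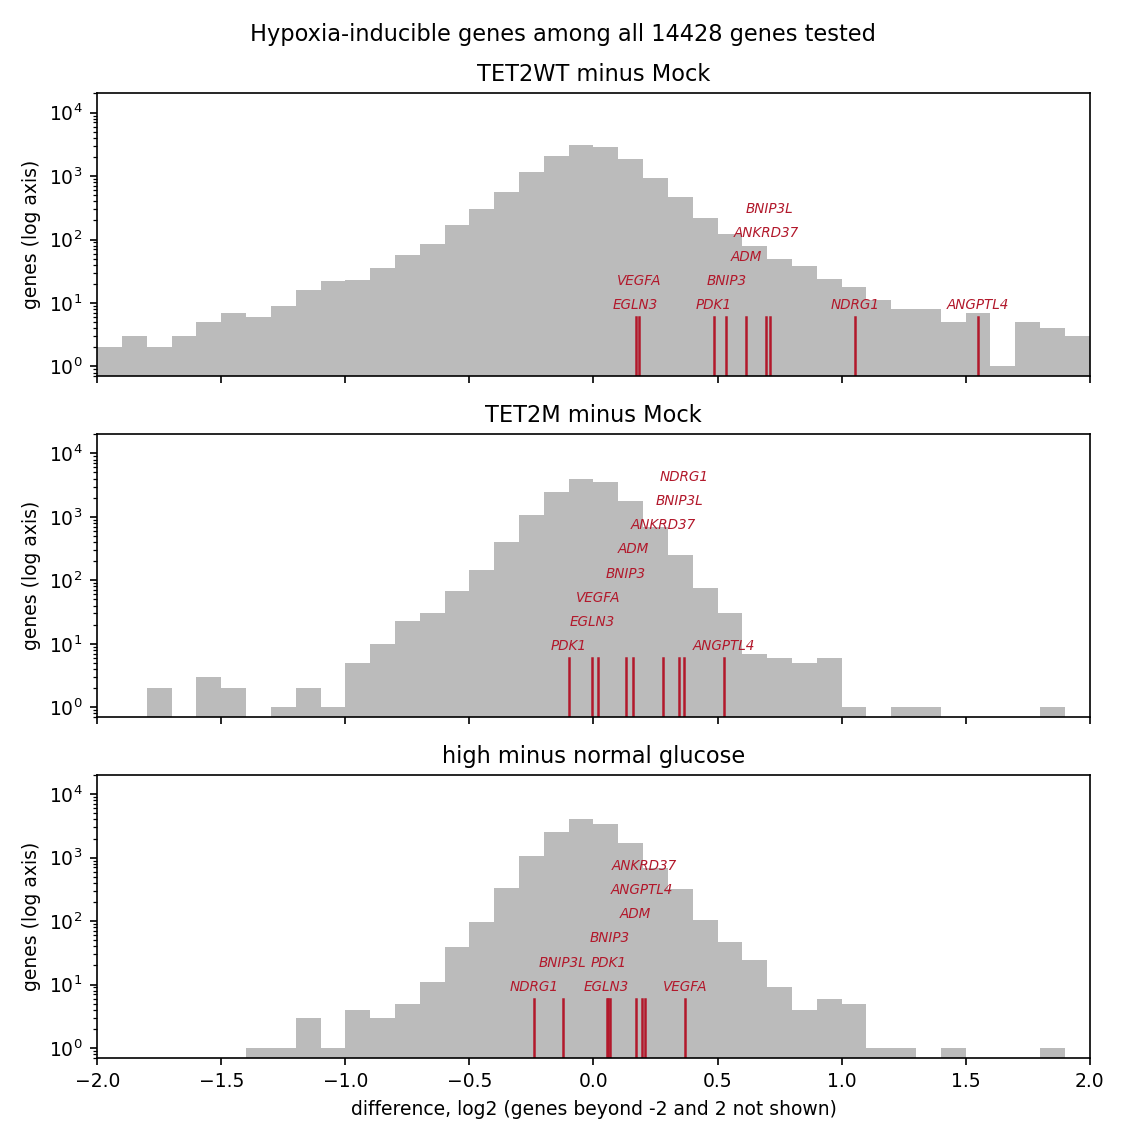
Number of genes by difference on the log2 scale in bins of 0.1, on a logarithmic axis, for TET2WT minus Mock, TET2M minus Mock and high minus normal glucose, with red lines at the 9 hypoxia-inducible genes. In the first panel all 9 lie to the right of 0, from 0.17 for EGLN3 to 1.55 for ANGPTL4, and in the third they lie between -0.24 and 0.37.

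For the 3 genes with the widest range over the arrays, the genes most like them were found by Pearson's r over the 6 arrays. These arrays form 3 lines and share their processing, so r is given as a description. ANGPTL4, with a range of 1.88, was most like NFIC (r = 0.995), ARMCX3 (0.995), VGLL4 (0.994), ARTN (0.992) and GGACT (0.989). NDRG1, with a range of 1.31, was most like PINK1 (0.997), WASHC3 (0.995), SOBP (0.993), SWI5 (0.993) and TST (0.992). ANKRD37, with a range of 0.91, was most like ZNF654 (0.989), ACOT13 (0.986), TMEM45A (0.985), RBP3 (0.984) and HOXC6 (0.984). SOBP had a range of 1.23 and ARTN one of 0.18, so a like shape did not mean a like size.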

How the data were processed

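Total RNA of 3 A2058 lines at 2 glucose concentrations was hybridised to 6 arrays, 1 per combination. The authors deposited log2 probe set values, and the submitters' processing notes name Affymetrix Expression Console. How probes were summarised and background removed is not given in the sources used here. Deposited values were used unaltered, and their range gave the log base. The platform annotation named 1 gene for 41097 probe sets. For 41043 of these the gene ID was found in RefSeq, and the symbol was taken from there, whether or not it had changed. Probe sets with a mean under the 40th percentile (2.64) were dropped, and each gene was represented by its remaining probe set with the highest mean.

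Models were fitted with limma 3.58.1 in R 4.3.3 (lmFit, eBayes, two-sided, Benjamini-Hochberg). The additive model had terms for line and glucose, leaving 2 residual degrees of freedom, to which the prior added 3.97. For the glucose response of TET2WT alone, an interaction term was added. The 10 genes, the gene lists and the tests were chosen with earlier results of these data known. The text gives all 10 genes and, per list, up to 4 genes that passed or else those with the largest differences. The fits were tested on simulated data with 200 changed genes. Of 1.5-fold changes 0% were recovered in every comparison. Of 2-fold changes 84.5% to 95.5% were recovered, but 0% for the glucose response of TET2WT. The alternatives were other filters, probe set rules, normalizations, variance priors, model terms and left-out arrays or lines. Figures were drawn with matplotlib 3.10.9.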

Additional observations from a re-analysis of the deposited data

How the results depend on the processing

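Of the 9 genes, the number that passed between TET2WT and Mock was 5 as reported, 7 when the moderated variance followed intensity (1528 of all genes passed, against 608 as reported), 4 with every probe set as its own feature, 3 with the mean of a gene's probe sets, 3 without the glucose term, and 0 with the TET2M line left out or any array left out. Between TET2WT and TET2M it was 2 as reported, 7 with that variance (1249 of all genes, against 476), 1 without the glucose term, and 0 with the Mock line left out or any array left out. For glucose it was 0 as reported and 1 with that variance (573 of all genes, against 1). An array or line left out takes away 1 of the 2 residual degrees of freedom. With an array left out, at most 16 of all genes passed between TET2WT and Mock. With quantile or cyclic loess normalization, or the filter at the 60th percentile, 6 genes passed between TET2WT and Mock, BNIP3 being added. EGLN3 could not be given a value under that stricter filter. By the probe set with the highest mean, TET2WT on average exceeded both other lines for all 9 genes in every alternative run. The mean of a gene's probe sets gave the same signs. Changing the filter, variance prior or glucose term leaves those differences as they are, so such runs could not turn a sign. Among the other probe sets, TET2WT differed from Mock by -0.075 for ANKRD37 and -0.025 for EGLN3. It differed from TET2M by -0.085 for PDK1 and by -0.035 and -0.06 for VEGFA. The remaining ones were positive. Signs also turned for glucose and between TET2M and Mock, for differences close to 0. With the TET2WT line left out EGLN3 had a glucose difference of -0.035, with the Mock line left out PDK1 had one of -0.065, and with the mean of its probe sets PDK1 differed by 0.105 between TET2M and Mock. With single arrays left out, the glucose difference ranged from -0.035 to 0.105 for EGLN3 and from -0.065 to 0.24 for PDK1. The difference between TET2M and Mock then ranged from -0.077 to 0.117 for VEGFA, from -0.083 to 0.072 for EGLN3 and from -0.288 to 0.087 for PDK1. The cause of these changes was not tested. Lines were compared within each glucose concentration, since both stand in the model as terms.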
